A study of Mus musculus with 14 samples.

Results

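The contacts described here are pairs of 10 kb genome bins whose starts lie more than 1000 kb and up to 2000 kb apart, as called from H3K4me3 PLAC-seq in mouse cells. They were taken from 4 lists made with the contact caller FitHiChIP, 1 per group. Rows on the 19 autosomes were kept, and rows whose first anchor lies in 6 repeat-rich windows of mm10 were left out (chr2:175000001-178000000, chr4:145000001-148000000, chr12:19000001-24000000, chr13:22000001-23000000, chr13:61000001-66000000 and chr17:6000001-7000000). ESC control thus held 2077 of 33475 contacts, ESC auxin 1741 of 22705, NPC control 4308 of 44892 and NPC auxin 3084 of 24836, or 7096 of 73306 distinct bin pairs over the lists. Where 4 values follow each other below, they are in this order of the lists.

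PLAC-seq ligates DNA ends that lie close together in fixed nuclei and then immunoprecipitates fragments carrying a chromatin mark, here H3K4me3, the trimethylated lysine of histone H3 found at active and poised promoters. ESC control is F123 mouse embryonic stem cells with a CTCF-AID allele and auxin for 0 h, ESC auxin is the same cells after 48 h of auxin, and NPC control and NPC auxin are neural precursor cells made from them, taken on day 4 without and with auxin. AID is a degron tag that lets auxin remove the tagged protein, so all 4 groups carry tagged CTCF and auxin is meant to remove it. The lists hold no measure of the CTCF protein itself. Each group has 2 samples by its titles but only 1 list, which leaves the conditions without replicates to test. The other 6 samples, with dCas9, were not analysed here.

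CTCF is a DNA-binding zinc finger protein that stops cohesin as it extrudes chromatin loops, and the loop ends and domain borders it sets usually lie within a megabase. Contacts over longer distances are fewer, and they are known from several settings: domains that span gene deserts around developmental genes, the gathering of silent developmental promoters bound by Polycomb complexes in stem cells, and the clustering of active gene families in nuclear bodies. In read-based data, near-identical gene copies can also produce apparent contacts, since a read from one copy may be placed on another.

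Members had low contact counts. The median contact count of a bin pair was 14, 14, 14 and 15. The lowest count was 8, 8, 7 and 8 and the highest 505, 521, 983 and 843. The caller's expected count was low at this distance, with medians of 2.03, 2.03, 2.47 and 2.70, so a member's count was typically 6.72, 7.05, 5.80 and 5.56 times its expectation. The lists rest on 47519917, 48307867, 52337421 and 59961568 contacts in all. In NPC control, 110 contacts sat just outside the rule at 1000 kb with a median count of 14, and 114 just inside it at 1010 kb with a median count of 15. Every member had an H3K4me3 peak bin at 1 or both anchors. Control and auxin lists of a cell type marked all their shared bins alike (12153 bins in ESCs and 15500 in NPCs), so the marks do not show H3K4me3 after auxin.

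Marker promoters were checked by the reads covering their bins. Among progenitor markers, 5 of the 6 with reads in both control lists had more in NPC control, such as Sox1 (6085 in ESC control and 13285 in NPC control) and Meis1 (4194 and 11215), and Nes had 9026 and 8899. Peak bins of ESC control members outside the gene-family windows described below, however, also mostly had more reads in NPC control. The median log2 ratio was 0.54 for members called again there and 0.52 for the others, with lower quartiles of 0.30 and 0.25. More reads in NPC control thus do not by themselves set the progenitor markers apart. The stem cell markers were divided. Nanog (6118 and 3853), Zfp42 (8343 and 7597) and Dppa5a (4629 and 3135) had fewer reads in NPC control, whereas Klf4 (5021 and 8561), Tbx3 (8712 and 12777) and Sox2 (4235 and 5769) had more. These reads are not scaled by depth. The bins of Nanog, Zfp42 and Dppa5a were still marked as peaks in NPC control, and the progenitor marker Fabp7 was in none of the lists. The lists hold no expression, and fewer cells of a type and less H3K4me3 per cell cannot be told apart.

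Promoters at the anchors of contacts that the results below turn on are shown first. Nkx2-1 and Foxa1 were the 2 ends of a contact found in all lists, Lhx1 was an end of a contact found in ESCs only, Gata3 had contacts that were mostly absent with auxin, and Zic1 had more contacts with auxin. The sequences are from RefSeq (GRCm38.p6) and run 5′ to 3′ on the gene's strand from 250 bases before to 50 bases after the start site, with each CG dinucleotide in capitals.

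Nkx2-1, chr12:56536859-56537158, minus strand: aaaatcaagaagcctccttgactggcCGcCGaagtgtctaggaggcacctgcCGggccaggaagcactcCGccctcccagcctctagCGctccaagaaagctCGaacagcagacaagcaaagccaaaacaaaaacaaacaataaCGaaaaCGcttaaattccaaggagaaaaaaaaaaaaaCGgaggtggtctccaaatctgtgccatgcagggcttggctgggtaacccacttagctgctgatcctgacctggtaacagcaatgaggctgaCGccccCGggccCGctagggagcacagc
Foxa1, chr12:57546062-57546361, minus strand: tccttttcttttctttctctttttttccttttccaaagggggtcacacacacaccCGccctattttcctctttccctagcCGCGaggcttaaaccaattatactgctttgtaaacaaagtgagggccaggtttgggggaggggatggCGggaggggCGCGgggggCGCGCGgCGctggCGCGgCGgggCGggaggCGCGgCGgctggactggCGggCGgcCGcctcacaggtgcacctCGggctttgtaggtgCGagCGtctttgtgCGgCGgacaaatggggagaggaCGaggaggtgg
Lhx1, chr11:84525485-84525784, minus strand: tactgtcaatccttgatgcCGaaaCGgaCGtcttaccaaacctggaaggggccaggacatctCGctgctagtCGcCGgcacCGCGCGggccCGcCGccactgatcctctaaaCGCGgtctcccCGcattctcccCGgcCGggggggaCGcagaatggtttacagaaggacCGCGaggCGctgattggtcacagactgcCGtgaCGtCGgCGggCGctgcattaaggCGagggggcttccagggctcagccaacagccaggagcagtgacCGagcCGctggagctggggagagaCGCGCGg
Gata3, chr2:9878551-9878850, minus strand: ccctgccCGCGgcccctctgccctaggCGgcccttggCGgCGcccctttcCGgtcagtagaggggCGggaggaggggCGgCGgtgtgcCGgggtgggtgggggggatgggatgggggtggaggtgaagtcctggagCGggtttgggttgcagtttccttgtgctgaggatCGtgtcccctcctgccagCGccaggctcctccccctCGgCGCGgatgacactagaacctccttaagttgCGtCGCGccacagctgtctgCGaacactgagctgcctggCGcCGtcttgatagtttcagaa
Zic1, chr9:91365719-91366018, minus strand: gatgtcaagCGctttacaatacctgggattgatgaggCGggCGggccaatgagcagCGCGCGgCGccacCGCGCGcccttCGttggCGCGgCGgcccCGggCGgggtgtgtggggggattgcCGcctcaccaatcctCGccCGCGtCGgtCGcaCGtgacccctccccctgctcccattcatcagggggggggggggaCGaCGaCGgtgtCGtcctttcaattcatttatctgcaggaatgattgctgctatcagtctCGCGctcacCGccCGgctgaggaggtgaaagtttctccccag

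The 300 bases held 12 CG dinucleotides in Nkx2-1, 26 in Foxa1, 31 in Lhx1, 22 in Gata3 and 31 in Zic1. The median over the 17491 protein-coding genes of the promoter table was 13. Over genes with a contact over 1 Mb it was 17, 17, 21 and 21 in the 4 lists, against 20 over the 10671 genes with a contact at any distance in any list. The medians of the ESC lists were thus below that of genes with any contact, and those of the NPC lists just above it.

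A core of the CTCF recognition motif, 12 letters searched on both strands, was found in 2.75% of the 17491 promoters and in 3.19%, 2.58%, 3.28% and 3.28% of those with a contact over 1 Mb in ESC control, ESC auxin, NPC control and NPC auxin. None of the 80 listed developmental genes with such a contact and a sequence in the table held it. Adra2a, described below, held 1 match, shown in capitals, which begins 32 bases after the start site on the gene's strand. A match is not a binding site, and a window without one says only that these letters are not in it.

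Adra2a, chr19:54045009-54045308, plus strand: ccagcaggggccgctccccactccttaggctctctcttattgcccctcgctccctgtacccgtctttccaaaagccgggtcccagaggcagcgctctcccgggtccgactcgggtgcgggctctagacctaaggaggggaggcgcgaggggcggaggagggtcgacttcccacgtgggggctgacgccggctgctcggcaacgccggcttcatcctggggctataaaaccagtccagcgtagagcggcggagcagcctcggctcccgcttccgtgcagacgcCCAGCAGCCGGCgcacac

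The number of contacts over 1 Mb was lower with auxin in both cell types and higher in NPCs than in ESCs. ESC auxin had 0.838 times as many as ESC control and NPC auxin 0.716 times as many as NPC control. Shorter contacts had the lower ratios: 0.554 in ESCs and 0.479 in NPCs from 20 to 500 kb, and 0.669 and 0.499 from 500 kb to 1 Mb. These ratios are over autosomal contacts whose first anchor lies outside the repeat-rich windows. The share of such contacts that lay over 1 Mb was therefore higher with auxin. It was 11.0% against 7.87% in ESCs and 15.3% against 10.9% in NPCs. NPC control had 2.07 times as many long contacts as ESC control, against 1.33 times as many from 20 to 500 kb. With the repeat-rich windows kept, the ratio over 1 Mb was 1.19. By chromosome, ESC auxin was below ESC control on 18 of 19, with ratios from 0.313 on chromosome 16 to 1.08 on chromosome 14. NPC auxin was below NPC control on 18 of 19, from 0.415 on chromosome 16 to 1.01 on chromosome 19. NPC control exceeded ESC control on 18 of 19, the exception being chromosome 14 at 0.669.

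**Figure D1:**
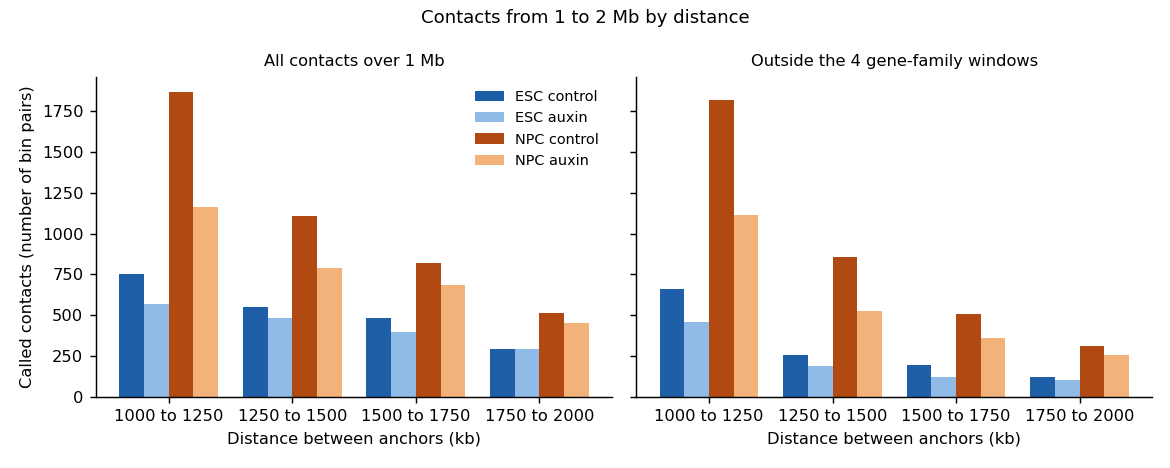
Number of called contacts (y axis, bin pairs) by distance between the anchors (x axis, 4 classes in kb) in the 4 lists, for all members (left) and outside 4 windows of gene families (right); bars are single lists with no replicate. NPC control has the most contacts in every class, with 1865 from 1000 to 1250 kb and 513 from 1750 to 2000 kb, and ESC auxin the fewest, with 570 and 292.

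A large share of the long contacts lay in a few gene families. Members whose anchors lie within 20 kb of each other at both ends were joined into clusters, which gave 772, 646, 1739 and 1393 clusters in the 4 lists. The 3 clusters with the most bin pairs alone held 22.9%, 26.4%, 15.5% and 21.8% of the members. A set of 4 windows, picked after the values were seen, held 848, 870, 809 and 825 members: the histone genes of chromosome 13 (21 to 24 Mb), the class I histocompatibility genes of chromosome 17 (33 to 36 Mb) and 2 arrays of predicted Gm genes on chromosome 14 (3 to 8 Mb and 41 to 44 Mb). These were 40.8%, 49.97%, 18.8% and 26.8% of all members. Outside them 1229, 871, 3499 and 2259 members remained. In the windows the number with auxin was 1.03 times that of control in ESCs and 1.02 times in NPCs, whereas outside them the ratios were 0.709 and 0.646. NPC control had 0.954 times as many as ESC control in the windows and 2.85 times as many outside them.

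The histone cluster was the largest of all. It joined replication-dependent histone genes in chr13:21700001-22000000, such as H2ac13, H3c10 and H1f5, with others in chr13:23270001-23640000, such as H2ac7, H2ac10 and H1f3, which encode the core and linker histones of new chromatin. It held 314, 296, 480 and 480 bin pairs in the 4 lists. Its pair with the highest count joined the bin of H2ac13, H2bc13 and H3c10 to one that starts 1860 kb away, with a contact count of 76, 71, 348 and 303. In the whole window the contact counts of shared pairs were lower in ESC auxin than in ESC control by a median log2 of -0.18 (quartiles -0.46 and 0.07, 271 pairs) and higher in NPC control than in ESC control by a median of 0.72 (quartiles 0.25 and 1.18, 329 pairs), both scaled to the lists' total contacts. Of the control contacts of this window, 76.6% in ESCs and 86.4% in NPCs were called again with auxin.

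The histocompatibility cluster joined H2-K1 and its neighbours with H2-D1 and the H2-Q genes, which encode class I molecules that present peptides to T cells. It held 129, 130, 125 and 129 bin pairs in ESC control, ESC auxin, NPC control and NPC auxin. The pair of the H2-K1 gene body with the H2-D1 promoter, 1270 kb apart, had contact counts of 259, 263, 522 and 590. Per total contacts this was 0.999 times as many in ESC auxin as in ESC control (95% interval 0.838 to 1.19) and 0.987 times as many in NPC auxin as in NPC control (0.875 to 1.11). NPC control had 1.83 times the ESC control value (1.57 to 2.13). These and later intervals on a pair are exact binomial ones and cover counting error only. The rise was not shared by the whole window. Its shared pairs had a median log2 ratio of NPC control over ESC control of -0.03 (quartiles -0.38 and 0.25, 117 pairs).

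The first array on chromosome 14 had fewer contacts in NPCs than in ESCs. From 3 to 8 Mb there were 232, 236, 54 and 48 contacts in the 4 lists. Only 9.48% of the ESC control contacts there were called again in NPC control, against 76.7% in ESC auxin. The pair with the highest lowest count over the 4 lists also lay on this chromosome, between the Gm2832 promoter and a bin 1280 kb away, with contact counts of 505, 521, 983 and 843. Histone, histocompatibility and Gm genes are families of similar copies, so where their reads belong is uncertain. The lists of MAPS, a second contact caller, give the mappability of the bins they cover. In these windows the median over such bins was 0.933 for histones and 0.923 for the histocompatibility genes. For the arrays it was 0.958 and 0.960, over only 20 and 4 bins. So few bins cannot show how mappable the arrays are as a whole. Over all anchor bins of members with a value, the medians were 0.953 to 0.957. The part of sequence similarity in these contacts was not tested.

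Outside the windows, the pairs with the highest counts in all 4 lists joined varied loci. The pair of Trp53rka and Trp53rkb, 2 copies of a gene for a kinase that modifies transfer RNA, lay 1300 kb apart and had contact counts of 63, 94, 183 and 211. Mars1, a methionyl transfer RNA synthetase gene, and Rps26, a ribosomal protein gene, lay 1310 kb apart with counts of 85, 67, 81 and 84. Clcn4 on chromosome 7 was paired with 3 places 1160 to 1900 kb away, the farthest in Vmn2r37, a pheromone receptor gene, with counts of 80, 89, 88 and 91. On chromosome 5, a bin at 1700016C19Rik and the promoter bin of 4930519G04Rik, 1510 kb apart, had counts of 168, 190, 150 and 167. These pairs were chosen as called in all 4 lists, so their presence with and without auxin is no result. Whether any of them comes from misplaced reads was not tested.

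The HoxA genes, homeobox genes that set position along the body axis, also had a contact in all 4 lists. A stretch at chr6:51160001-51220000 was paired with their cluster at chr6:52180001-52280000. The pair of its bin that starts at 51170001, in no annotated gene, with Hoxa9, 1050 kb away, had contact counts of 69, 66, 56 and 86 in the 4 lists. Per total contacts, auxin over control was 0.941 in ESCs (0.661 to 1.34) and 1.34 in NPCs (0.946 to 1.91), and both intervals include 1. The cluster of this contact held 17, 19, 25 and 21 bin pairs. The HoxD genes were paired with a stretch around Chrna1, a muscle acetylcholine receptor gene, in a cluster of 8, 11, 18 and 10 bin pairs.

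Contacts called again in a second list were compared next. Of ESC control members, 50.4% were called again in ESC auxin (95% interval 48.2 to 52.6, n = 2077), against 33.2% of ESC control contacts at all distances and 32.4% from 500 kb to 1 Mb. Of NPC control members, 37.4% were called again in NPC auxin (35.97 to 38.9, n = 4308), against 30.9% at all distances and 27.6% from 500 kb to 1 Mb. The excess lay in the 4 gene-family windows. Inside them 78.1% of ESC and 84.2% of NPC control members were called again with auxin. Outside them the shares were 31.3% (28.7 to 34.0) and 26.6% (25.1 to 28.1), both close to or below those at shorter distances. The shares at shorter distances were taken with contacts in the windows kept, so the regions differ. Without bins of 10 or more partners the shares were 28.0% and 23.5%. Of ESC control members 53.2% were called again in NPC control, near the 53.3% at all distances, and 48.4% outside the windows.

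**Figure D2:**
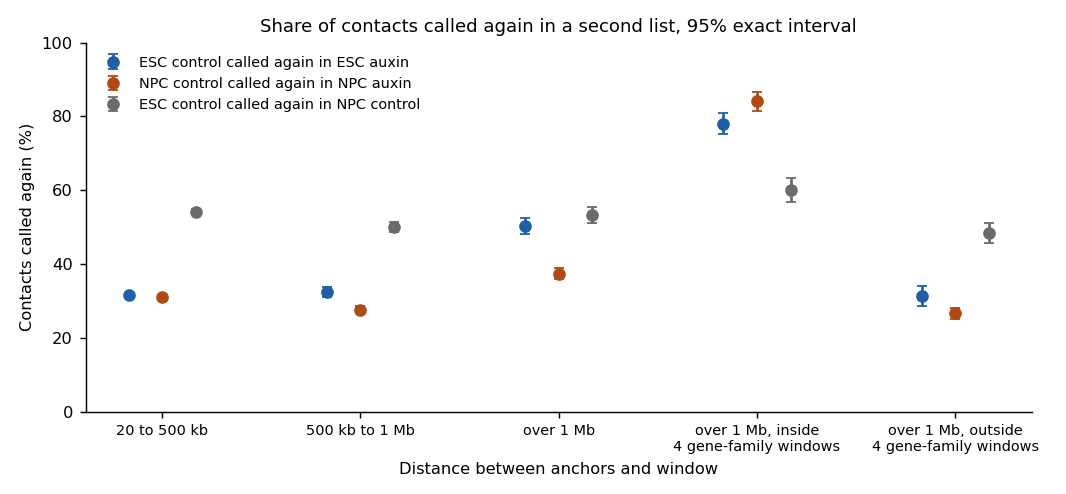
Share of the contacts of a first list that were called again, in the same bins, in a second list (y axis, percent), by distance and by whether an anchor lies in 1 of 4 gene-family windows (x axis); points are shares and bars exact 95% binomial intervals of counting error. The auxin comparisons reach 78.1% and 84.2% inside the windows and 31.3% and 26.6% outside them.

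Whether a member was called again went with its strength. In the fifth of ESC control members with the lowest q-values, the median count was 34 and 96.2% were called again in ESC auxin, and in the fifth with the highest q-values the median count was 10 and 18.99% were called again. In NPCs the shares were 80.7% and 14.4%, with median counts of 31 and 11. The shares called again were thus high at low q-values and low near the threshold. In reverse, 60.1% of ESC auxin members had been called in ESC control, against 55.4% of ESC auxin contacts at all distances. Of NPC auxin members, 52.3% had been called in NPC control, against 60.5%. Outside the 4 windows these shares of members were 44.2% and 41.2%, and inside them 76.1% and 82.5%. Those outside were below the shares at all distances, which were taken with the windows kept.

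Where a member was called in both lists, its contact count differed little with auxin. The median log2 ratio per total contacts was -0.02 in ESCs (quartiles -0.32 and 0.24, 1047 pairs) and -0.20 in NPCs (quartiles -0.46 and 0.08, 1612 pairs). Shared contacts at all distances had medians of -0.05 and -0.20, and centring on the shared contacts up to 1 Mb turned both signs, to 0.03 in ESCs and 0.02 in NPCs. In ESCs the median outside the 4 windows was 0.07. Between NPC control and ESC control the median was 0.40 (quartiles -0.01 and 0.86, 1105 pairs), against 0.20 over all distances, and it was 0.11 with the repeat-rich windows kept. These ratios leave out every pair that one of the lists lacks.

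Reads at the anchors had like ratios for members that were called again and for those that were not. Outside the 4 windows, the reads covering a peak bin in NPC auxin over NPC control had a median log2 ratio of 0.03 at 754 bins of members called again. At 1222 bins of members not called again that both lists hold, the median was 0.03 as well. In ESCs the medians were 0.07 at 327 bins and 0.08 at 520 bins. These read ratios are unscaled. Scaled by total contacts, as the contact counts above are, reads at the anchors of shared members outside the windows had a median log2 ratio of -0.16 in NPCs and 0.06 in ESCs.

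More of the members joined peak bins to each other in NPC auxin than in NPC control. By the marks of the FitHiChIP lists, a peak bin at both anchors was found for 42.0% (39.8 to 44.1), 44.2% (41.8 to 46.5), 39.5% (38.0 to 40.96) and 58.0% (56.2 to 59.8) of members in the 4 lists. Outside the 4 windows the shares were 39.1%, 45.4%, 34.1% and 56.8%. The contacts from 500 kb to 1 Mb showed the same order, with 40.5%, 51.4%, 33.9% and 60.2%. With the repeat-rich windows kept the shares over 1 Mb were 22.9%, 21.7%, 29.3% and 37.3%. By the marks of the MAPS lists, which cover 598, 417, 1586 and 1116 members, they were 81.9%, 86.1%, 70.4% and 85.6%, so that NPC auxin stood above NPC control but not above ESC auxin. An anchor outside every annotated gene was found for 37.6% of the NPC control members outside the windows and for 22.1% of those of NPC auxin. In NPC control outside the windows, 38.3% of members with peak bins at both anchors (35.5 to 41.1) were called again with auxin and 20.6% of those with 1 (18.9 to 22.3). In ESC control these shares were 32.9% (28.7 to 37.3) and 30.3% (27.03 to 33.7), whose intervals overlap.

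**Figure D3:**
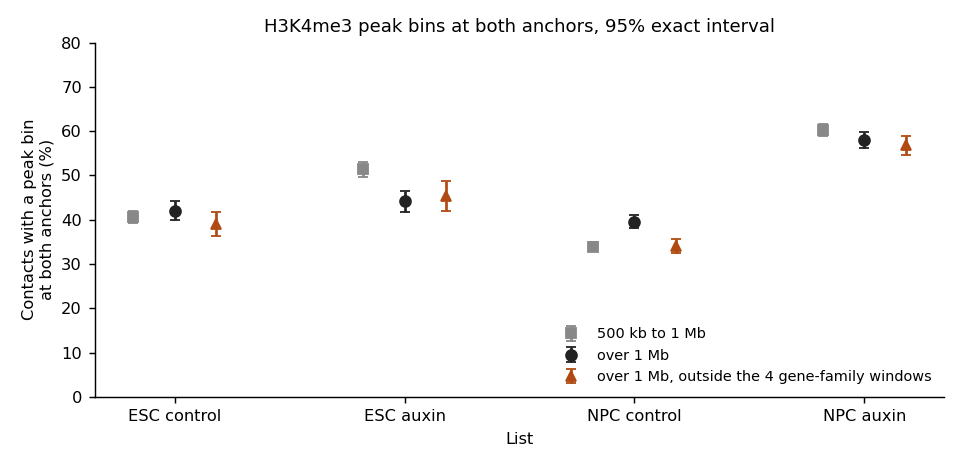
Share of contacts whose anchors are both H3K4me3 peak bins (y axis, percent) in the 4 lists (x axis), from 500 kb to 1 Mb (squares), over 1 Mb (circles) and over 1 Mb outside the 4 gene-family windows (triangles); bars are exact 95% binomial intervals of counting error. By these marks of the FitHiChIP lists, NPC auxin lies highest in all 3 classes, at 60.2%, 58.0% and 56.8%.

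Most distinct pairs were in 1 list only. Of the 7096 pairs, 2391 were called only in NPC control, 1283 only in NPC auxin, 532 only in ESC control and 444 only in ESC auxin. Both anchors were peak bins in 29.6% of the pairs of NPC control only and in 61.3% of those of NPC auxin only. All 4 lists shared 626 pairs, of which 421 lay in the 4 windows and 205 outside them. Only 340 pairs were in both ESC lists and no NPC list, and 219 of these lay in the windows.

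The share of developmental regulators with a long contact was above that of all genes. In ESC control, 51 of 153 listed Polycomb-target transcription factor genes had a contact over 1 Mb (33.3%), and 816 of all 19170 protein-coding genes did (4.26%). The counts were 34 of 153 in ESC auxin, where 3.55% of all genes had one, 45 in NPC control, where 9.11% had one, and 41 in NPC auxin, where 9.02% had one. Genes with no contact at any distance count in these shares, so the share was also taken over genes with any contact in the list, which gave 36.2% of the listed genes and 8.75% of all in ESC control and 33.1% and 15.5% in NPC control. Of 39 Hox genes, 12, 14, 14 and 14 had a contact. Of 37 neural progenitor genes, 4, 2, 10 and 9 did, and of 67 genes for developmental signals 10, 8, 13 and 16. Housekeeping genes stood at 2, 2, 4 and 2 of 27, and pluripotency genes at 5, 7, 6 and 5 of 29. CTCF and cohesin genes stood at 0, 0, 3 and 3 of 16. The gene lists are short, and neighbours in 1 bin are counted together.

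Some contacts joined developmental genes at both anchors. By the gene lists used here there were 12 such bin pairs, of which ESC control held 11, ESC auxin 10, NPC control 3 and NPC auxin 6. The lists do not name every developmental gene, so this is no full count. Pairs with the homeobox genes Mnx1 and Nkx1-2, which are not on the lists, stand outside the 12. Of these, Hmx2 to Nkx1-2, 1040 kb apart, had counts of 31, 21, 15 and 18 and Shh to Mnx1 was likewise in all 4 lists, whereas En2 to Mnx1, 1310 kb apart, had 29 without and 15 with auxin in ESCs and was called in neither NPC list. Of the 11 listed pairs in ESC control, 9 were called again in ESC auxin, where the share over all ESC control contacts was 33.2%, and 3 in NPC control, where it was 53.3%. The 12 come from 8 gene pairs, so adjacent bins are not separate findings.

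The pair of Lhx1 and Tbx2 on chromosome 11 had contact counts of 33 without and 32 with auxin in ESCs and was in neither NPC list. Lhx1 encodes a LIM homeobox factor of head and kidney development and Tbx2 a T-box repressor, and their bins start 1310 kb apart. Auxin over control was 0.954 per total contacts (0.568 to 1.600). Lhx1 had 5, 3, 0 and 0 contacts over 1 Mb in ESC control, ESC auxin, NPC control and NPC auxin. The reads covering its bin, unscaled, were 10222 in ESC control and 13567 in NPC control. Most peak bins of ESC control members outside the gene-family windows likewise had more reads in NPC control. How reads at the bin bear on its contacts was not tested.

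Nkx2-3 and Pax2, a gut and spleen homeobox gene and a kidney and hindbrain paired-box gene, were joined in the same 2 lists. Their pair at 1130 kb had contact counts of 21 in ESC control and 17 in ESC auxin. Fst, which encodes the activin antagonist follistatin, and Isl1, a motor neuron and heart factor, were 1850 kb apart with counts of 14 in ESC control, 10 in ESC auxin and 13 in NPC auxin. That pair was thus in every list but NPC control.

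Nkx2-1 and Foxa1 were joined in all 4 lists and had higher counts with auxin in both cell types. Nkx2-1 is the lung, thyroid and ventral forebrain homeobox factor and Foxa1 a forkhead pioneer factor, and their bins are 1010 kb apart. The contact count was 31, 51, 22 and 45 in the 4 lists. Per total contacts, auxin over control was 1.62 in ESCs (1.02 to 2.62) and 1.79 in NPCs (1.05 to 3.12), with intervals that are not adjusted for the 12 pairs. The next bin, at Sfta3-ps, was paired with Foxa1 at 23 in ESC control, 36 in ESC auxin and 31 in NPC auxin and was not called in NPC control. The Iroquois genes Irx1 and Irx4, 1300 kb apart, had counts of 28, 33, 23 and 29, and their intervals of auxin over control include 1 in both cell types (0.679 to 1.99 and 0.615 to 1.99).

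**Figure D4:**
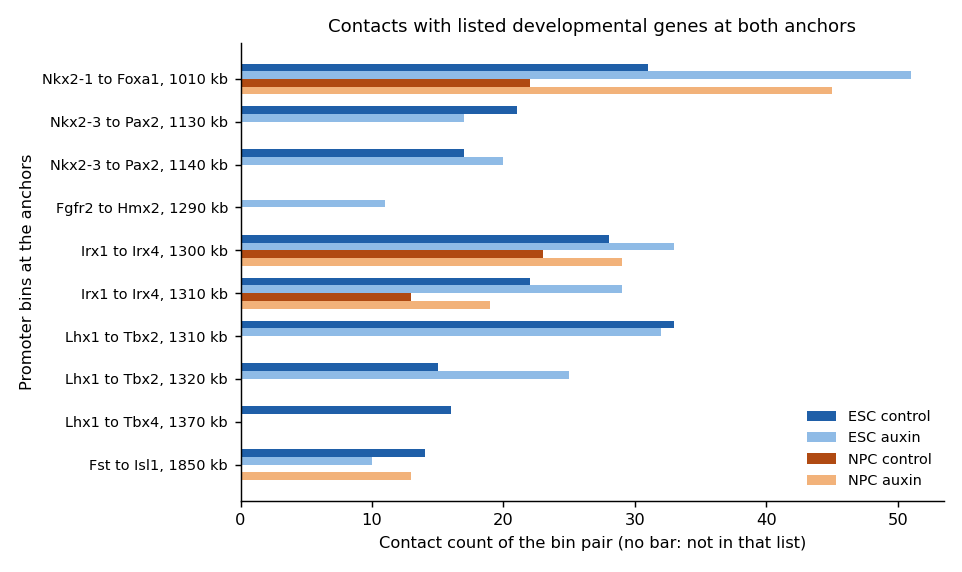
Contact counts (x axis) of 10 of the 12 bin pairs with listed developmental genes at both anchors (y axis, with their distance in kb) in the 4 lists; each bar is 1 list and a missing bar means that the pair was not called there. Lhx1 to Tbx2 and Nkx2-3 to Pax2 have bars in the ESC lists only, and Nkx2-1 to Foxa1 reaches 51 and 45 in the auxin lists.

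Several regulators with many partners in NPC control had fewer in NPC auxin. Genes of this kind described below were chosen on their values. Some were chosen for many partners in NPC control or a strong pair absent from NPC auxin, which favours fewer with auxin. Of all 2442 protein-coding genes with a contact over 1 Mb in either NPC list, 1068 had fewer with auxin and 974 more. Gata3, a zinc finger factor of sympathetic, ear and T cell development, had 2, 0, 13 and 2 contacts over 1 Mb from its promoter bin. They reached a stretch 1010 to 1210 kb away. The pair 1200 kb away had contact counts of 25 in ESC control, 55 in NPC control and 20 in NPC auxin. The gene body bin had its strongest pair 1210 kb away, with counts of 37, 59 and 18 in the same lists, and auxin NPCs had 0.266 times the NPC control value per total contacts (0.148 to 0.458). MAPS contacts, which reach 1000 kb, numbered 55 in NPC control and 10 in NPC auxin at the promoter bin. At these long pairs of Gata3, counts were thus higher in both control lists than in NPC auxin. ESC auxin had no call, but the gene body pair was chosen for that absence. The NPC auxin pair with a count of 20 was still 6.26 times its expectation.

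Myc, the growth-promoting transcription factor gene, had 3, 1, 32 and 25 contacts in the 4 lists. Those of NPC control lay 1030 to 1820 kb away toward the chromosome end, and the strongest, in the non-coding gene 4930449C09Rik 1740 kb away, had a count of 46 there and 22 in NPC auxin. In NPC auxin 1 partner lay on the opposite side, 1160 kb away. Epha4, an ephrin receptor gene of axon guidance, had 4, 2, 37 and 17 contacts. Its strongest, 1860 kb away, had counts of 12, 13, 43 and 29. Both genes thus had many long partners in NPC auxin too, with a lower count at the strongest.

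Other genes of this kind in NPC control and NPC auxin were Nr2f1 (20 and 10 contacts), a nuclear receptor of the cortex, Meis2 (17 and 2), a homeobox cofactor, and Fzd8 (22 and 9), a Wnt receptor. Pou3f2 and Pou3f3, POU factors of neural progenitors, had 13 and 9 contacts in NPC control and 0 in each of the other lists. Zfp503, a zinc finger gene, had 22 and 2, Adamts1, a matrix protease gene, 30 and 13, and Fat4, a protocadherin of planar polarity, 25 and 8. Over all members outside the 4 windows, the number in NPC auxin was 0.646 times that in NPC control. The strongest pairs of Adamts1 at 1450 kb and of Fat4 at 1510 kb among those absent from NPC auxin each had a count of 46 in NPC control. Adra2a, an adrenergic receptor gene, had 13, 3, 20 and 15 contacts in ESC control, ESC auxin, NPC control and NPC auxin. Its pair with Gpam, 1020 kb away, had counts of 48 in ESC control, 77 in NPC control and 22 with auxin in NPCs. It was chosen as a pair not called in ESC auxin. In NPCs that pair was 0.249 times as frequent with auxin per total contacts (0.148 to 0.405).

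Some genes had fewer partners with auxin and others had more. Of listed Polycomb-target genes with a contact in either ESC list, 34 had fewer in ESC auxin, 13 more and 9 the same number. Of all 1058 protein-coding genes with such a contact, 525 had fewer (49.6%), 338 more and 195 the same number. In NPCs 29 of the listed Polycomb-target genes had fewer with auxin, 16 more and 7 the same number. Of all 2442 protein-coding genes with a contact in either NPC list, 1068 had fewer (43.7%), 974 more and 400 the same number. Of listed neural progenitor genes with a contact in either control list, 9 had more, 0 fewer and 1 as many in NPC control as in ESC control, where 76.1% of all genes had more. In NPC auxin 7 of the neural progenitor genes had fewer contacts than in NPC control and 3 more.

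The paired genes Zic1 and Zic4, zinc finger factors of the dorsal neural tube that share a promoter bin, had 3, 10, 3 and 11 contacts in the 4 lists. Their pair with Morf4l1, a chromatin factor gene 1250 kb away, had counts of 15, 14, 17 and 26. MAPS contacts up to 1000 kb at the bin went the other way, with 2, 1, 12 and 2. Ebf1, a helix-loop-helix factor of B cells and neurons, had 4, 1, 10 and 21 contacts over 1 Mb, and 39, 35, 65 and 70 MAPS contacts. In NPC auxin its long partners lay 1010 to 1500 kb away, with counts up to 27, and in NPC control 1010 to 1330 kb away, with counts up to 28. The strongest pair of NPC auxin that was not in NPC control joined Ccnl1, a cyclin gene, with the body of Shox2, a homeobox gene 1020 kb away, at a count of 39.

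**Figure D5:**
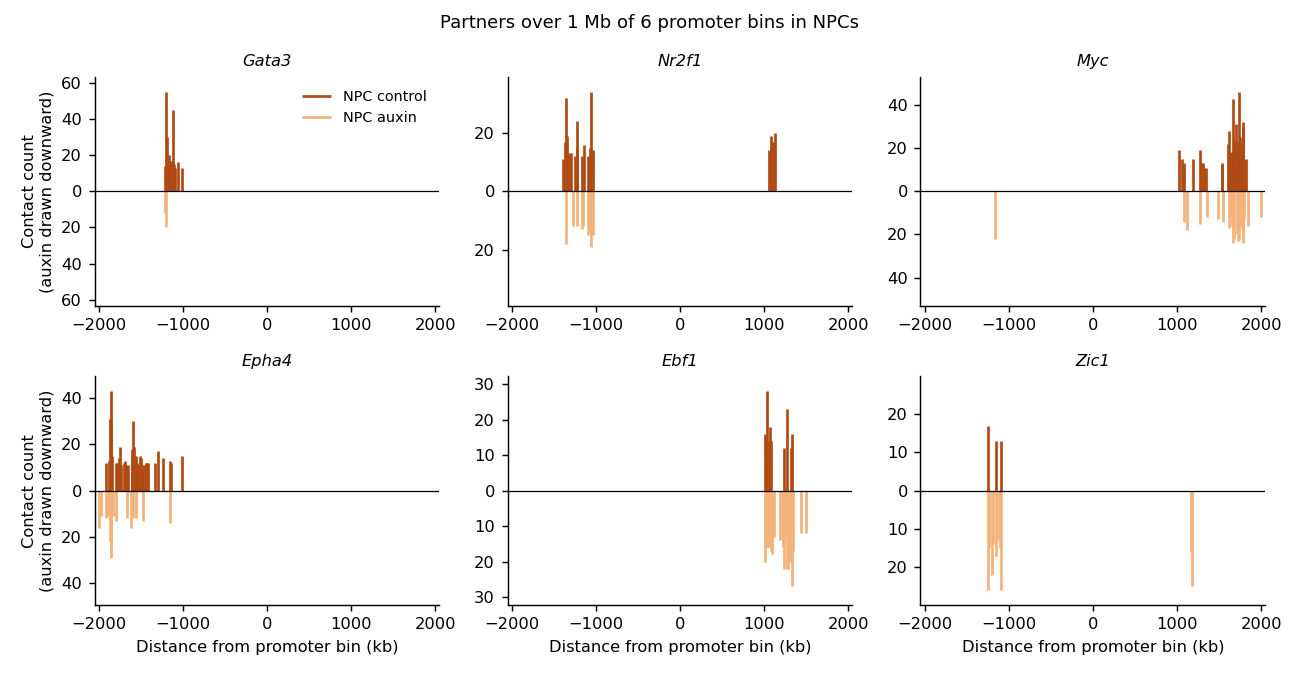
Contact counts (y axis, NPC control upward and NPC auxin downward) of all partners over 1 Mb of the promoter bins of 6 genes, by distance from the bin in kb (x axis, negative toward the chromosome start); each line is 1 bin pair in 1 list. Gata3 and Nr2f1 have 13 and 20 partners in NPC control and 2 and 10 with auxin, Ebf1 has 10 and 21, and Zic1 3 and 11.

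Other named promoters had pairs that some of the lists lacked. Igf2bp3, which encodes an RNA-binding protein of early development, was paired with a bin 1470 kb away at counts of 37 in ESC control, 45 in NPC control and 42 with auxin in NPCs, and it was not called in ESC auxin. Bcl11b, a zinc finger gene of neurons and T cells, was paired with a bin 1040 kb away at counts of 31, 34 and 18 in the same 3 lists. Maf, a leucine zipper factor gene, was paired with the body of Wwox 1250 kb away at counts of 10 in ESC auxin, 52 in NPC control and 27 with auxin in NPCs. In NPCs the Maf pair was 0.453 times as frequent with auxin per total contacts (0.274 to 0.735). Sox11, a neural SOX factor gene, was paired with a bin in no annotated gene 1080 kb away at counts of 43 in NPC control and 18 in NPC auxin, a ratio of 0.365 (0.198 to 0.647). The pairs of Igf2bp3 and Bcl11b were chosen as absent from ESC auxin, and those of Maf and Sox11 as absent from ESC control. These absences are thus no result. The Maf and Sox11 pairs were further picked for their high NPC control counts, which favours ratios below 1. Their intervals cover counting error only and do not allow for this choice. The Igf2bp3 bin did have another long pair in ESC auxin, with a bin 1540 kb away at a count of 18.

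Some pairs of NPC auxin that were not in NPC control had promoters at both ends. Slc26a6, an anion transporter gene, was paired with Cdc25a, a cell cycle phosphatase gene, 1020 kb away at counts of 12 in ESC control and 30 in NPC auxin. Arid4a, a chromatin factor gene, was paired with the bin of Jkamp and L3hypdh 1070 kb away at a count of 27 in NPC auxin only. Over all members outside the 4 windows, promoter bins lay at both anchors in 20.98% of those of NPC control and 34.4% of those of NPC auxin.

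Of the 29 pluripotency genes, 17.2%, 24.1%, 20.7% and 17.2% had a long contact in the 4 lists, where 4.26%, 3.55%, 9.11% and 9.02% of all genes did. Zfp42, which encodes the pluripotency marker Rex1, had 5, 1, 7 and 4 contacts, and its strongest, with the body of the protocadherin gene Fat1 1630 kb away, had counts of 15, 12, 29 and 26. Klf4 had 0, 1, 7 and 3, and Nanog 1, 1, 0 and 0. Pou5f1, whose contacts with H2-K1 fall in the histocompatibility window, had 2, 2, 0 and 1. Among genes for developmental signals, Wnt5a had 3, 6, 2 and 1 contacts, and its pair with Cacna2d3, a calcium channel gene 1220 kb away, had counts of 34 in ESC control, 37 in ESC auxin and 14 in NPC control. Shh, the hedgehog ligand gene, had 5, 4, 5 and 5, and its pair with the motor neuron gene Mnx1, 1010 kb away, had counts of 30, 34, 17 and 22. The Shh to Mnx1 pair was thus present in all 4 lists, with the higher counts in ESCs.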

How the data were processed

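The analysis started from contact lists that the authors deposited, 1 per group for each of the callers FitHiChIP and MAPS, per the labels. BWA, Picard and mm10 are named by the submitters' processing notes without versions. Pooling of the 2 samples per group is not stated in them. Per the file headers, the deposited FitHiChIP lists hold a contact count per pair of 10 kb bins, a coverage count and a peak mark for each bin, an expected contact signal, the expected fraction of all contacts and a q-value, all q-values being under 0.01. These lists span 20 to 2000 kb. The authors' MAPS lists reach 1000 kb and give contact counts, peak marks and the mappable and GC fraction of each bin. The expected contacts divided by their expected fraction gave the total contacts of each list.

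A contact was called again when both bins were the same, and a contact absent from a list has no value. Shares have exact Clopper-Pearson 95% intervals, which cover counting error only. A gene's promoter bin holds its start in the RefSeq promoter table (17491 genes, GRCm38.p6) or, for 2948 others, a gene end in a peak bin. Named were the 10 clusters with the most bin pairs, the 10 pairs of all 4 lists with the highest lowest count, the 5 pairs with the highest count of each contrast, the 5 bins with the most partners in each list and, of each gene list, every gene with a contact where there were at most 8, otherwise the 5 with the highest count. Not all of these are printed, results for some genes are not reported here, and other genes named were chosen after their values were seen. The members and lists were chosen with earlier results of these data known. Calculations used Python 3.11.15, pandas 2.3.3 and scipy 1.17.1 and were tested on simulated data. The alternatives changed the windows, distance, q-value, clustering, crowded bins, matching, peak marks and scaling.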

Additional observations from a re-analysis of the deposited data

Results flagged for a closer look

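Ebf1 had more contacts over 1 Mb with auxin in NPCs and fewer in ESCs. The number differed by 11 in NPCs, from 10 in NPC control to 21 in NPC auxin, and went from 4 to 1 in ESCs. Hoxd11 showed the opposite, with a change of -4 in NPCs, from 8 to 4, while ESC control had 2 contacts and ESC auxin 7. With 1 list per group, neither difference between the cell types was tested.

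The repeat-rich windows that were left out held 3920 contacts over 1 Mb in ESC auxin, against 3756 in ESC control, 2608 in NPC control and 2597 in NPC auxin. The difference between ESC auxin and ESC control was not tested.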

How the results depend on the processing

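No paired analysis was possible because each group has 1 list per caller. With the repeat-rich windows kept, NPC control had 1.19 times as many contacts over 1 Mb as ESC control. For the share of ESC control contacts called again in ESC auxin, of NPC control in NPC auxin and of ESC control in NPC control, the values were 74.6%, 55.3% and 55.6% with those windows kept, 57.6%, 43.7% and 55.7% over 1200 kb, 62.9%, 44.2% and 59.9% at a q-value under 0.0001, and 28.0%, 23.5% and 38.0% without bins of 10 or more partners. They were 65.4%, 53.8% and 65.2% with anchors allowed to differ by 1 bin, 56.9%, 46.0% and 44.1% with the same number of contacts from each list, and 31.3%, 26.6% and 48.4% without the 4 gene-family windows, an alternative chosen after seeing the data. With clusters counted once the ESC share was 46.8%.

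The median log2 ratio of ESC auxin over ESC control reversed to 0.043 with the repeat-rich windows kept, 0.035 when centred and 0.069 without the gene-family windows, and was 0 unscaled. That of NPC auxin over NPC control was -0.13 with the windows kept, -0.093 without crowded bins and 0 unscaled, and reversed to 0.019 when centred. That of NPC control over ESC control was 0.11, 0.19, 0.54 and 0.22 in the same order. The cause of the reversals was not tested.

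The share with peak bins at both anchors, in ESC control, ESC auxin, NPC control and NPC auxin, was 22.9%, 21.7%, 29.3% and 37.3% with the repeat-rich windows kept. By the marks of the MAPS lists, which cover only some pairs, it was 81.9%, 86.1%, 70.4% and 85.6%. In ESC control, NPC control and NPC auxin it was 44.7%, 42.0% and 60.6% at the stricter q-value and 44.9%, 50.8% and 66.1% over clusters. Over 1200 kb it was 44.9% in ESC control and 44.1% in NPC control, without the gene-family windows 39.1% and 34.1%, and without crowded bins 42.6% in NPC control and 63.8% in NPC auxin. Of 120 alternatives over 13 results, 65 left the value within its counting interval or 1.5 times. Low counts limit what a contact's absence from a list can show.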
